A study of Mus musculus with 6 samples.

Results

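The vacuolar proton pump and the genes that mark the acid-base cells of the collecting duct were examined in kidney samples of 24-month-old mice, 3 wild-type (WT) and 3 with a fat-1 knockin (fat-1). The fat-1 gene encodes a nematode desaturase that makes omega-3 from omega-6 fatty acids, and the study asks how it acts in the aged kidney. Members were taken by name: listed genes of the Atp6v, Atp6ap, Slc4a (without Slc4a4), Slc26a and numbered Car families, Rhbg and Rhcg, and Foxi1, Aqp6, Hmx2, Insrr, Atp4a, Atp12a, Tmem213, Hepacam2 and Clcn5. This gave 61 of 13696 genes in the deposited tables. All 6 samples are kidney RNA, 1 library each. The labels used here give neither strain, sex, diet nor the promoter of the inserted gene, and leave unsaid whether each kidney is from its own animal. P-values therefore measure only the spread between these samples, which may be technical. The fat-1 transcript was not analysed here, so it could not serve as a check of the labels.

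The vacuolar proton pump is a rotary enzyme with a cytosolic V1 sector, which splits ATP, and a membrane V0 sector, which moves protons. Every cell uses it to acidify lysosomes and endosomes. Intercalated cells of the collecting duct carry it in the plasma membrane and build it partly from less widespread isoforms of subunits B, a, G, d and C. Type A intercalated cells secrete acid through an apical pump and return bicarbonate to blood through the anion exchanger Slc4a1, while type B cells secrete bicarbonate through pendrin, the product of Slc26a4. The forkhead factor Foxi1 is needed for both types, and inherited loss of the B1 or a4 subunit causes distal renal tubular acidosis.

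Levels are FPKM, fragment counts scaled to transcript length and to the mapped fragments of a library, summed over the listed transcripts of a gene, so they can be compared between genes per unit length. Each difference is the fat-1 mean minus the WT mean of log2(FPKM + 1), a scale that shrinks differences of low genes, and the values come from limma fitted to the 11698 genes that reached 1 FPKM in 3 or more libraries. Of the 61 members, 56 passed this filter. Summed FPKM per library ran from 387488 to 431081, the members took 0.568% to 0.666% of it, and the read depth behind the values is unknown.

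No member passed an adjusted p of 0.05 in limma (0 of 56), where 21 of all tested genes did, or 0.18%. At an unadjusted p under 0.05, 11 members were lower in fat-1, against 4.16% of all tested genes, and 3 were higher, against 5.8%. The lower ones were Atp6v0d2, Atp6v1c2 and Atp6v1g3 among the pump subunits, Foxi1, Hepacam2, Hmx2, Insrr, Slc26a4 and Tmem213 among the intercalated cell genes, and Car4 and Slc26a1. The higher ones were Atp6v0a4, Car14 and Slc26a6. Leaving out WT replicate 2, the lower count was 7 and the higher count 1; the higher count was also 1 without WT replicate 3 or fat-1 replicate 1. Without WT replicate 1, whose summed macrophage markers stood far above the other libraries, the counts were 10 and 2. The shares over all tested genes in these smaller fits are not given, so a change in count may be no more than a loss of power. The median difference was -0.12 over the tested members and 0.01 over all tested genes.

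To show what lies before these genes, the 250 bases upstream of the RefSeq start of 3 intercalated cell genes are printed with 1 ubiquitous subunit gene, from RefSeq on GRCm38.p6 (the build named mm10). Capitals mark TGTTTA, a core sequence of forkhead factors such as Foxi1, or CACGTG, the E-box core bound by TFEB-type factors of lysosomal genes, each on either strand.
Atp6v1b1, chr6:83742767-83743016, + strand: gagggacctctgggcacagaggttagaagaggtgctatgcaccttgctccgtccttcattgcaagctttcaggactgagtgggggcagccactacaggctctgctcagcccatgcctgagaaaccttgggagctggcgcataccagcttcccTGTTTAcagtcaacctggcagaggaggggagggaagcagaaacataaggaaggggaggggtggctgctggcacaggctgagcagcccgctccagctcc
Atp6v1g3, chr1:138273488-138273737, + strand: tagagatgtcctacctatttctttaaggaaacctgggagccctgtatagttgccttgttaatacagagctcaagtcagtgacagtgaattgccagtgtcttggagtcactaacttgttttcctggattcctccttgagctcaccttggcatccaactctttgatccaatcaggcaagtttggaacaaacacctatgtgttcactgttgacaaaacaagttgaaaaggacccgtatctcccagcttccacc
Slc26a4, chr12:31559985-31560234, - strand: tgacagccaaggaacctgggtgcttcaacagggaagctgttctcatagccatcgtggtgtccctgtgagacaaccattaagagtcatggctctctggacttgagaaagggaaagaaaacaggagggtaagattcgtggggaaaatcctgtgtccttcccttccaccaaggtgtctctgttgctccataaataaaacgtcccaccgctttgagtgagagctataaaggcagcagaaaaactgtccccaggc
Atp6v0b, chr4:117887330-117887579, - strand: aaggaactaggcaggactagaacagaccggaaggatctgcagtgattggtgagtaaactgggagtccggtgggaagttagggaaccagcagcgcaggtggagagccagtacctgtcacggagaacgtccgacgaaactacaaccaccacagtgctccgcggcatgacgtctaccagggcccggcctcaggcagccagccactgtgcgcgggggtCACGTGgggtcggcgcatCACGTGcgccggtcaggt
Atp6v1b1 held TGTTTA beginning 98 bases before the start, the windows of Atp6v1g3 and Slc26a4 held neither sequence, and Atp6v0b held CACGTG in 2 places. RefSeq windows matched 43 of the 61 members. TGTTTA was in 1 of 4 windows of intercalated cell subunits, 1 of 10 of the other intercalated cell genes and 0 of 13 of housekeeping subunits, and in 12% of all 32851 windows. CACGTG was in 2 of 13 housekeeping windows, 0 of 4 windows of intercalated cell subunits, 1 of 10 of the other intercalated cell genes and 6.02% of all windows. These are letter matches in a short window and describe no binding.

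The 5 subunits listed with intercalated cells pointed in different directions. Bulk kidney values do not show which cells the RNA of each came from. Atp6v1g3, Atp6v0d2 and Atp6v1c2 were lower in every fat-1 library than in any WT library, Atp6v0a4 was higher in every fat-1 library, and Atp6v1b1 overlapped. None of the 5 passed the adjusted test. Groups that do not overlap, with fat-1 lower, occurred for 6.86% of all tested genes, and with fat-1 higher for 8.33%.

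Atp6v1g3, the kidney isoform of the stalk subunit G (chromosome 1, 138273738 to 138289462, + strand, mm10), measured 33.3, 35.0 and 40.2 FPKM in the WT libraries and 23.3, 21.6 and 19.3 in the fat-1 libraries. Each fat-1 library lay well under the lowest WT library, and the difference was -0.73 ± 0.13 (SE), with a 95% interval of -1.03 to -0.43 (adjusted p = 0.102 in limma). Atp6v0d2, the d isoform that joins the membrane sector to the central stalk and also serves osteoclasts (chromosome 4, 19876841 to 19922605, - strand), measured 19.8, 21.1 and 18.5 FPKM in the WT libraries and 10.5, 13.4 and 11.8 in the fat-1 libraries. Its groups were likewise apart, at -0.69 ± 0.13 (SE) (95% interval -0.99 to -0.39, adjusted p = 0.108). Atp6v1c2, an isoform of subunit C, which clamps the V1 sector to V0 (chromosome 12, 17284721 to 17324730, - strand), measured 14.8, 15.6 and 16.4 FPKM in the WT libraries and 12.3, 12.4 and 11.6 in the fat-1 libraries. The gap was narrower here, at -0.34 ± 0.11 (SE) (adjusted p = 0.318). Exons of Atp6v1c2 and of the chaperone gene Pdia6 overlap by 50 bases on opposite strands, and Pdia6 measured 97.0 ± 6.24 FPKM in WT against 68.6 ± 3.57 FPKM in fat-1 (SD, n = 3). Whether the library kit kept the strand was not given in the sources used here, so reads in that overlap cannot be assigned.

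Atp6v1b1, the B subunit of intercalated cells that completes the ATP-binding sites (chromosome 6, 83742990 to 83758855, + strand), measured 69.7, 60.1 and 55.3 FPKM in the WT libraries and 59.0, 46.8 and 57.8 in the fat-1 libraries. WT replicate 1 was highest and fat-1 replicate 2 lowest, and the other 4 libraries were interleaved (-0.18 ± 0.14 (SE), 95% interval -0.52 to 0.17). Atp6v0a4, the a subunit through which protons leave and which targets the pump to the plasma membrane (chromosome 6, 38048483 to 38124586, - strand), measured 68.8, 70.3 and 47.4 FPKM in the WT libraries and 74.4, 83.7 and 95.0 in the fat-1 libraries. The lowest fat-1 library stood just above the highest WT library, and WT replicate 3 was far below the other WT libraries (0.45 ± 0.19 (SE), 95% interval 0.01 to 0.89, adjusted p = 0.494).

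The 2 listed Atp6v0a4 transcripts were divided unevenly between libraries. Transcript Atp6v0a4-201 measured 34.2, 65.6 and 44.1 FPKM in the WT libraries and 22.5, 28.1 and 87.2 in the fat-1 libraries, and Atp6v0a4-202 measured 34.7, 4.72 and 3.27 FPKM in the WT libraries and 51.9, 55.6 and 7.84 in the fat-1 libraries. Libraries high in Atp6v0a4-202 (WT replicate 1, fat-1 replicates 1 and 2) were low in Atp6v0a4-201, so the sum varied less than either part. With the more abundant transcript alone, the difference of Atp6v0a4 turned to -0.27, opposite to the sum and to the mean of Atp6v0a4-202. Exons of Atp6v0a4 and of Tmem213, another intercalated cell gene, overlap on opposite strands by up to 62 bases, and the gene model D630045J12Rik shares up to 259 bases of 1 exon on the same strand. D630045J12Rik measured 1.74 ± 0.220 FPKM in WT against 3.29 ± 0.641 FPKM in fat-1 (SD, n = 3), far below Atp6v0a4 itself.

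**Figure D1:**
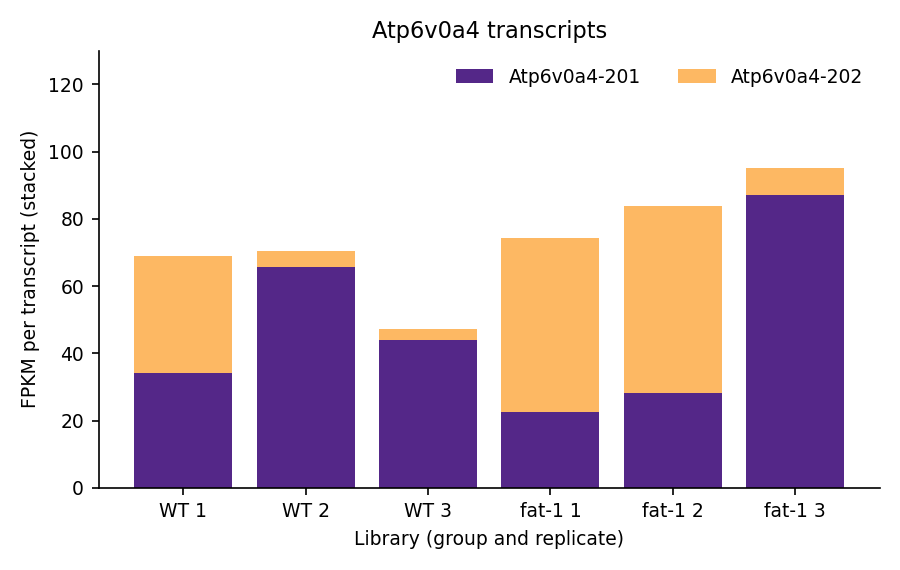
Stacked FPKM (y axis) of the 2 listed Atp6v0a4 transcripts in each of the 6 libraries (x axis). The total runs from 47.4 FPKM in WT replicate 3 to 95.0 FPKM in fat-1 replicate 3, while the share of each transcript varies from library to library within both groups.

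The 16 housekeeping subunit genes had a median difference of -0.09, between -0.35 for Atp6v0a2 and 0.18 for Atp6v1a, against -0.34 over the 5 intercalated cell subunits, and the difference between these lists was not tested. Atp6v0a2 stood at 13.4 FPKM in WT replicate 2 against 6.56 to 7.72 FPKM elsewhere, and its difference ran from -0.53 to -0.09 when 1 library was left out. The housekeeping median was -0.14 without WT replicate 1, -0.05 without WT replicate 3 and -0.02 without fat-1 replicate 3. None was at an unadjusted p under 0.05 (0 of 16), and only without fat-1 replicate 1 did 2 reach it, both lower. The share over all tested genes in that smaller fit is not given. The catalytic A subunit gene Atp6v1a measured 121 ± 9.24 FPKM in WT against 137 ± 15.2 in fat-1 (SD, n = 3). The proton-carrying ring genes Atp6v0c and Atp6v0b measured 198 ± 39.4 FPKM in WT against 163 ± 18.5 in fat-1 (SD, n = 3) and 107 ± 9.60 FPKM in WT against 90.6 ± 20.7 in fat-1 (SD, n = 3), and Atp6v0e, a small V0 subunit, measured 136 ± 18.0 FPKM in WT against 115 ± 22.8 in fat-1 (SD, n = 3). All of these groups overlapped. Of the 16, only Atp6v1b2 had groups apart, at 120 ± 2.51 FPKM in WT against 107 ± 9.45 in fat-1 (SD, n = 3) (adjusted p = 0.762 in limma). Atp6v1e1 of the outer stalk varied from 129.9 to 222 FPKM across libraries with no separation by group, and Atp6v1f, of the central stalk, from 134 to 183 FPKM. Atp6v1d of the rotor differed by 0.01 ± 0.11 (SE) and Atp6v1h, a regulatory V1 subunit, by 0.06 ± 0.16 (SE). Among accessory proteins, Atp6ap2, the prorenin receptor, differed by -0.01 ± 0.11 (SE), while Atp6ap1, an assembly factor of V0, reached 62.8 FPKM in fat-1 replicate 2 against 26.6 to 40.6 FPKM in the other 5 libraries. Of subunits outside both classes, Atp6v0e2 measured 19.9 ± 2.09 FPKM in WT against 22.7 ± 1.27 in fat-1 (SD, n = 3) and Atp6v1g2, a mainly neuronal G isoform, 2.61 ± 1.29 FPKM in WT against 1.63 ± 0.629 in fat-1 (SD, n = 3).

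**Figure D2:**
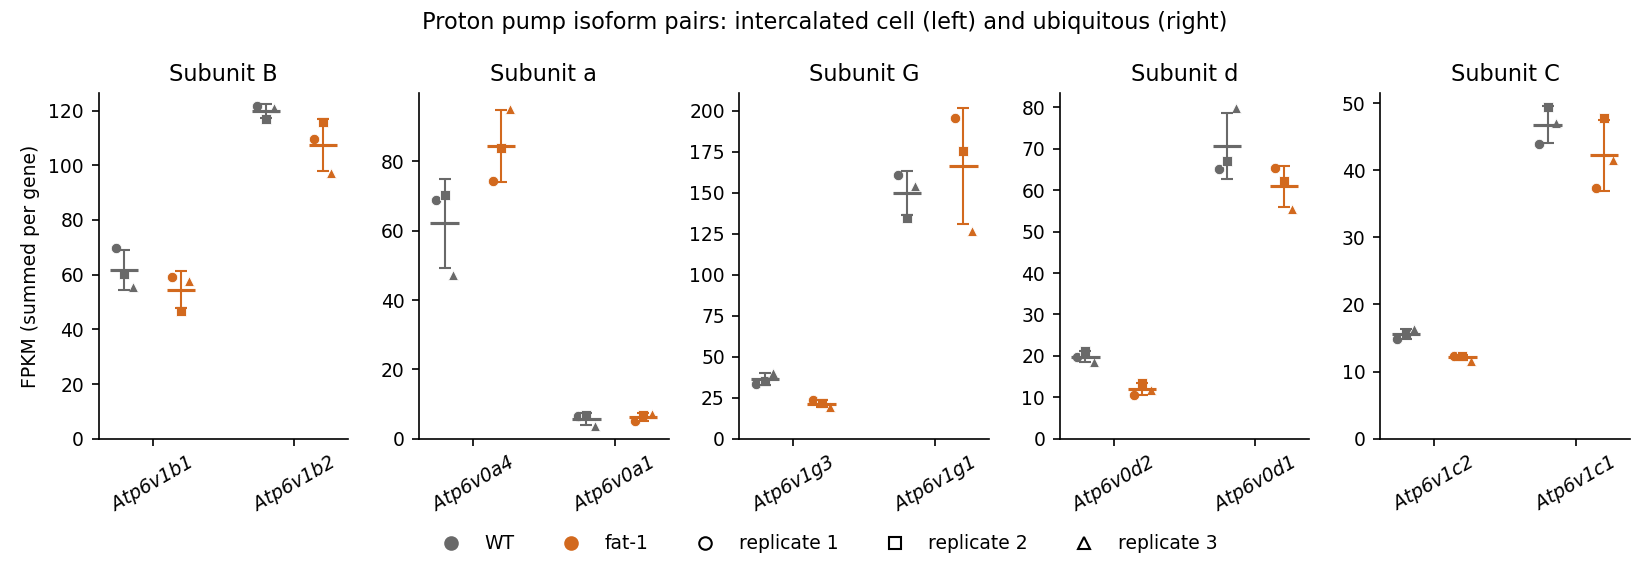
FPKM per gene (y axis, each panel with its own scale from 0) of each intercalated cell subunit isoform and its ubiquitous counterpart, with 1 point per library, the mean as a bar and the SD as whiskers (n = 3). Atp6v1g3, Atp6v0d2 and Atp6v1c2 show fat-1 points under all WT points, Atp6v0a4 shows them above, and of the ubiquitous genes Atp6v1b2 alone has groups apart.

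The isoforms differed in their share of the FPKM of each subunit, which measures RNA and not protein. Atp6v0a4 made up 73.6% ± 1.31 of the FPKM of the a family (Atp6v0a1, Atp6v0a2, Atp6v0a4 and Tcirg1, the a3 isoform) in WT and 81.8% ± 1.01 in fat-1 (SD, n = 3). Atp6v1b1 gave 33.9% ± 2.51 of subunit B FPKM in WT and 33.7% ± 4.39 in fat-1. For subunit G, the share of Atp6v1g3 was 19.2% ± 2.05 in WT and 11.5% ± 1.32 in fat-1. Atp6v0d2 gave 22.0% ± 2.81 of subunit d FPKM in WT and 16.4% ± 2.19 in fat-1. Atp6v1c2 gave 25.0% ± 0.948 of subunit C FPKM in WT and 22.4% ± 2.17 in fat-1.

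Intercalated and ubiquitous isoforms were compared directly by the FPKM ratio within each library, which no single scaling factor per library can alter. With 3 libraries against 3, the smallest exact p is 0.1, so no pair could pass 0.05. The ratio of Atp6v1g3 to Atp6v1g1 was 0.207, 0.260 and 0.262 in WT and 0.119, 0.123 and 0.152 in fat-1, a log2 difference of -0.88 with groups apart (exact two-sided permutation p = 0.1). Atp6v0d2 to Atp6v0d1 was 0.304, 0.315 and 0.231 in WT and 0.161, 0.215 and 0.213 in fat-1, a log2 difference of -0.53 with groups apart (exact permutation p = 0.1). The ratio of Atp6v1c2 to Atp6v1c1 was 0.337, 0.316 and 0.349 in WT and 0.330, 0.259 and 0.280 in fat-1, with fat-1 replicate 1 inside the WT range (log2 difference -0.21, exact permutation p = 0.2). Atp6v0a4 to Atp6v0a1 was 10.4, 10.5 and 12.6 in WT and 14.7, 12.2 and 13.5 in fat-1, higher on average in fat-1 but overlapping (log2 difference 0.28, exact permutation p = 0.2). Atp6v1b1 to Atp6v1b2 was 0.572, 0.513 and 0.457 in WT and 0.538, 0.405 and 0.595 in fat-1, with near-equal group means (log2 difference -0.02, exact permutation p = 1). Adjusted over the 5 pairs, the exact p was 0.25 for each of the first 4.

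**Figure D3:**
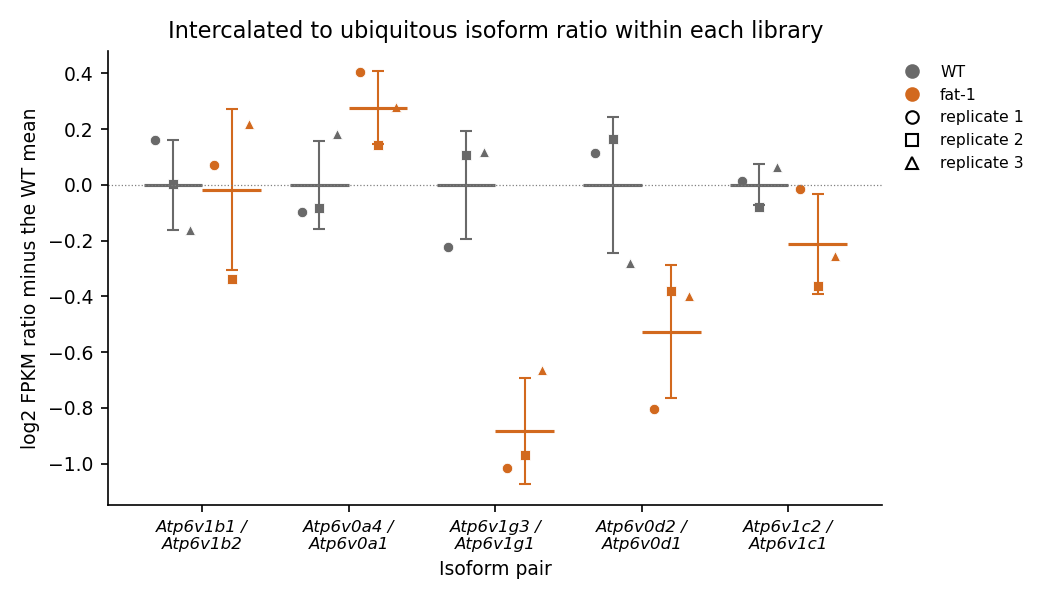
The log2 FPKM ratio of each intercalated cell isoform to its ubiquitous counterpart (y axis, minus the WT mean) for the 5 pairs (x axis), 1 point per library with mean and SD (n = 3). The pairs of subunits G and d lie below WT in every fat-1 library, by -0.88 and -0.53 on average.

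Among the members that are intercalated cell genes other than pump subunits, most were lower on average in fat-1, with Hmx2 and Slc26a4 lowest on the log2 scale. Of 14 tested genes, 11 had a negative difference (median -0.35), where 48.8% of all tested genes did. At an unadjusted p under 0.05 in limma, 6 of the 14 were lower, against 4.16% of all tested genes. This count ran from 4 without WT replicate 2 or fat-1 replicate 2 to 8 without fat-1 replicate 1. The share over all tested genes in those smaller fits is not given. Slc26a7, an anion exchanger of type A cells, was not analysed here. Foxi1 (chromosome 11, 34204338 to 34208089, - strand) measured 11.2, 13.1 and 13.2 FPKM in the WT libraries and 9.27, 7.34 and 9.96 in the fat-1 libraries. Every fat-1 library lay under every WT library, at -0.46 ± 0.15 (SE) (95% interval -0.82 to -0.11, adjusted p = 0.337 in limma). In bulk kidney, fewer cells of a type and less RNA per cell cannot be told apart.

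Slc26a4, pendrin, the apical chloride-bicarbonate exchanger of type B cells (chromosome 12, 31519827 to 31559969, - strand), measured 27.4, 28.0 and 27.1 FPKM in the WT libraries and 13.7, 19.2 and 13.0 in the fat-1 libraries. WT libraries were nearly equal and fat-1 libraries ran well below them, with fat-1 replicate 2 the highest of the 3 (-0.83 ± 0.16 (SE), 95% interval -1.20 to -0.45, adjusted p = 0.118). Insrr, a receptor that senses alkaline pH (chromosome 3, 87796951 to 87816101, + strand), measured 6.35, 4.87 and 5.48 FPKM in the WT libraries and 3.62, 3.47 and 3.50 in the fat-1 libraries. Its fat-1 libraries were almost identical and lay below WT (-0.53 ± 0.15 (SE), adjusted p = 0.257). Slc4a9, a basolateral exchanger of type B cells, measured 29.3, 29.7 and 20.1 FPKM in the WT libraries and 17.2, 21.4 and 21.5 in the fat-1 libraries, and WT replicate 3 lay inside the fat-1 range (-0.37 ± 0.18 (SE), adjusted p = 0.608). Spink8, a peptidase inhibitor gene outside the named families that had been listed with type B cells, measured 23.5, 19.5 and 22.4 FPKM in the WT libraries and 12.1, 9.65 and 11.5 in the fat-1 libraries, with groups apart (-0.92 ± 0.13 (SE), adjusted p = 0.0655). Across these 4 type B genes the median was -0.68, and their summed level was 75.1 to 86.5 FPKM in WT against 46.6 to 53.7 FPKM in fat-1. Sums of the other intercalated cell lists overlapped between groups. The 5 pump subunits summed to 178 to 206 FPKM in WT against 178 to 196 FPKM in fat-1. All 14 intercalated cell genes of the named set summed to 514 to 596 FPKM in WT against 470 to 616 FPKM in fat-1. The largest term of this sum was Car2, at 151 ± 16.3 FPKM in WT against 195 ± 43.1 in fat-1 (SD, n = 3). It was higher on average in fat-1, whereas 11 of the 14 genes had a negative difference, so the sum does not stand for most of them. The 6 type A genes summed to 30.3 to 46.6 FPKM in WT against 37.0 to 69.2 FPKM in fat-1. Its largest terms were Aqp6, at 14.3 ± 2.43 FPKM in WT against 18.8 ± 7.91 in fat-1, and Adgrf5, at 9.27 ± 4.68 against 17.6 ± 9.17 (SD, n = 3). Adgrf5 is also expressed by endothelial cells, and 3 of the 6 genes had a negative difference, so this sum does not stand for type A genes as a set.

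Type A genes were mixed. Slc4a1, the anion exchanger AE1 that type A cells share with red cells, measured 6.81, 7.23 and 5.80 FPKM in the WT libraries and 5.14, 4.84 and 7.85 in the fat-1 libraries, with fat-1 replicate 3 above all WT libraries. Summed erythrocyte markers, Slc4a1 included, ranged from 15.0 to 539.6 FPKM within fat-1, highest in replicate 1, where Slc4a1 was not highest. Aqp6, a water and anion channel of intracellular vesicles, measured 16.9, 13.9 and 12.1 FPKM in the WT libraries and 16.7, 12.1 and 27.5 in the fat-1 libraries. Here fat-1 replicate 3 stood above every other library (0.31 ± 0.29 (SE)). Hmx2, a homeobox factor whose assignment to type A is not certain (chromosome 7, 131548773 to 131558014, + strand), measured 4.61, 6.57 and 5.77 FPKM in the WT libraries and 3.02, 3.14 and 1.85 in the fat-1 libraries. Of the 14 intercalated cell genes of the named set, it differed most on the log2 scale, at -0.87 ± 0.21 (SE) with groups apart (adjusted p = 0.190). Of the genes outside the named families, the receptor tyrosine kinase gene Kit differed by -0.24 ± 0.28 (SE), the transcription factor gene Dmrt2 by 0.07 ± 0.24 (SE) and Adgrf5, which endothelial cells also express, by 0.85 ± 0.50 (SE). The 6 type A genes tested had a median of -0.04, and Hmx2 alone was at an unadjusted p under 0.05. The sign of this median depended on the libraries: it was -0.21 without fat-1 replicate 3, -0.15 without WT replicate 3, 0.03 without WT replicate 1 or WT replicate 2, and 0.11 without fat-1 replicate 2. It was also positive with the highest transcript only (0.05) and over the 3 genes left by a filter of 5 FPKM (0.31). The difference between the type A and type B lists was not tested.

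The remaining intercalated cell genes were listed with neither type. Tmem213, a small membrane protein (chromosome 6, 38109255 to 38115809, + strand), measured 107, 92.7 and 109 FPKM in the WT libraries and 97.7, 58.1 and 64.9 in the fat-1 libraries, with fat-1 replicate 1 inside the WT range (-0.51 ± 0.21 (SE), adjusted p = 0.475). Hepacam2, a cell adhesion protein of the immunoglobulin family (chromosome 6, 3457096 to 3494597, - strand), measured 6.26, 6.48 and 7.23 FPKM in the WT libraries and 4.48, 4.10 and 4.73 in the fat-1 libraries, with groups apart (-0.49 ± 0.13 (SE), adjusted p = 0.249). The ammonia transporters Rhcg and Rhbg, which principal cells also carry, measured 49.4 ± 2.39 FPKM in WT against 41.2 ± 10.9 in fat-1 (SD, n = 3) for the former, and 20.9, 17.6 and 20.7 FPKM in the WT libraries and 21.6, 11.8 and 14.6 in the fat-1 libraries for the latter. For both, fat-1 replicate 2 was lowest, and the groups overlapped. Rhbg shares up to 187 exon bases on the same strand with the gene model Gm38392, so its value is uncertain. Car2, the cytosolic carbonic anhydrase that supplies protons and bicarbonate, measured 166, 134 and 153 FPKM in the WT libraries and 236, 198 and 149.9 in the fat-1 libraries, against the direction of most intercalated cell genes (0.35 ± 0.19 (SE), adjusted p = 0.657). Car15, anchored on the outer membrane, was lowest in fat-1 replicate 2 at 47.3 FPKM against 71.1 to 90.8 FPKM elsewhere, and its exons overlap the gene model Gm20518 on the same strand. Membrane-bound Car12 ran from 29.9 to 61.4 FPKM in WT and from 28.9 to 63.2 FPKM in fat-1.

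**Figure D4:**
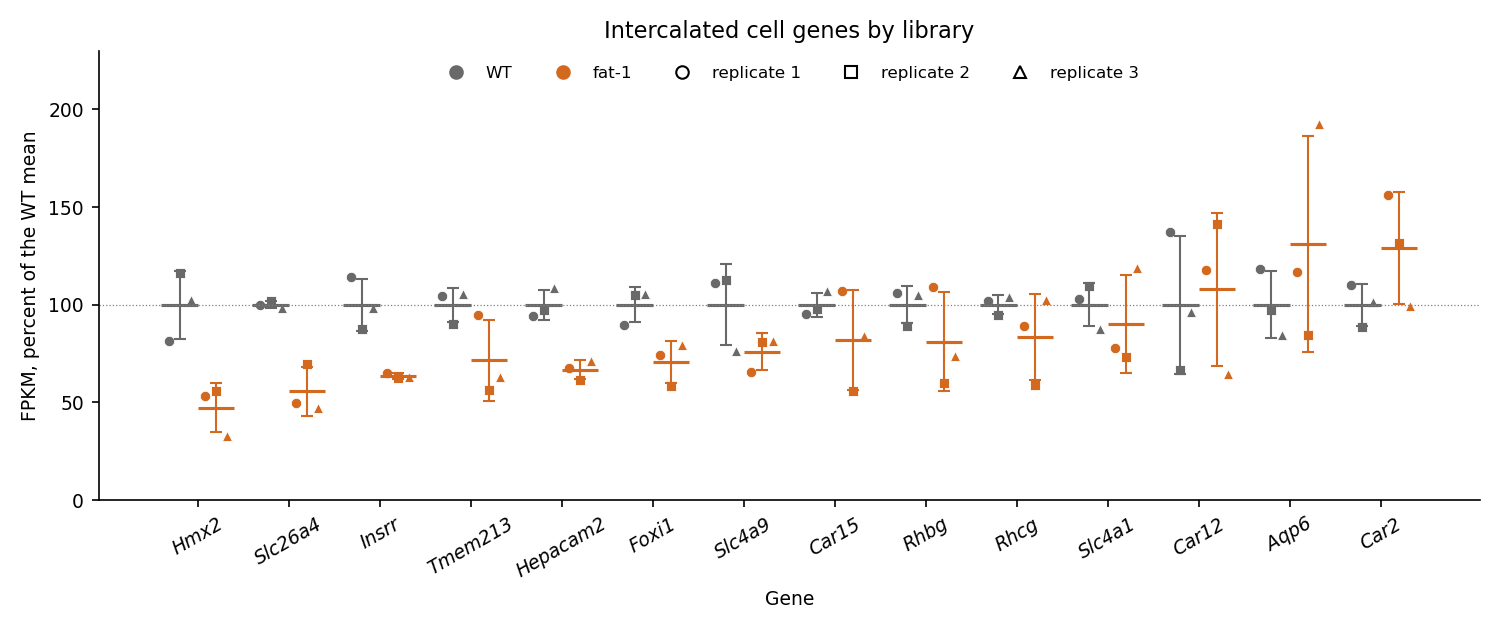
FPKM of 14 intercalated cell genes (x axis, ordered by log2 difference) as a percent of each gene's WT mean (y axis), 1 point per library with mean and SD (n = 3). Hmx2, Slc26a4, Insrr, Hepacam2 and Foxi1 have all fat-1 points below all WT points, while Car2 and Aqp6 lie on average above WT.

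The remaining members were not on the intercalated cell lists. Slc26a1, a basolateral sulfate exchanger of the proximal tubule (chromosome 5, 108669878 to 108675569, - strand), measured 37.0, 43.7 and 42.3 FPKM in the WT libraries and 22.6, 31.1 and 11.7 in the fat-1 libraries. All fat-1 libraries lay below WT, but they spread widely (-0.98 ± 0.32 (SE), adjusted p = 0.366), and its exons overlap those of Idua on the opposite strand by up to 141 bases. Slc26a6, an apical exchanger of chloride, oxalate and bicarbonate, measured 3.85, 2.68 and 5.35 FPKM in the WT libraries and 8.78, 5.37 and 6.35 in the fat-1 libraries, all fat-1 libraries lying above WT, the nearest by a narrow margin (0.67 ± 0.25 (SE), adjusted p = 0.442). Car4, a carbonic anhydrase on the brush border, measured 125, 234 and 271 FPKM in the WT libraries and 106, 133 and 107 in the fat-1 libraries. WT replicate 1 lay among the fat-1 libraries and apart from the other WT libraries (-0.80 ± 0.29 (SE), adjusted p = 0.429). Car14, a transmembrane carbonic anhydrase of the proximal tubule, measured 47.2, 35.9 and 31.2 FPKM in the WT libraries and 59.6, 66.1 and 47.3 in the fat-1 libraries. The lowest fat-1 library was just above the highest WT library (0.59 ± 0.19 (SE), adjusted p = 0.351), and exons shared with Aph1a on the opposite strand reach 445 bases.

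Clcn5, an endosomal chloride-proton exchanger that works beside the pump in the proximal tubule, measured 13.4 ± 1.67 FPKM in WT against 11.1 ± 0.694 in fat-1 (SD, n = 3). Its groups did not overlap (-0.25 ± 0.13 (SE), adjusted p = 0.633). Car9, induced by low oxygen, differed by -0.60 ± 0.30 (SE), Slc26a11, a sulfate exchanger family member, by -0.33 ± 0.20 (SE), and Car8, a carbonic anhydrase relative without enzyme activity, by 0.55 ± 0.28 (SE). Mitochondrial Car5b and Car5a differed by 0.12 ± 0.22 (SE) and 0.37 ± 0.36 (SE), and Car11, another inactive relative, by 0.17 ± 0.22 (SE). Car7, a cytosolic form, differed by -0.06 ± 0.32 (SE). The other 7 tested members had differences between -0.09 and 0.11: Atp4a, Car3, Car13, Slc26a2, Slc4a1ap, Slc4a2 and Slc4a7. Slc4a1ap encodes an adaptor protein and is not a transporter, although the name rule takes it.

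Both proton-potassium pump genes are named here after their values were seen. Atp4a, the catalytic subunit of the stomach pump, measured 14.7, 13.0 and 13.1 FPKM in the WT libraries and 17.2, 11.9 and 11.7 in the fat-1 libraries, with overlapping groups (-0.02 ± 0.17 (SE), 95% interval -0.42 to 0.38). Atp12a, the non-gastric form found in the colon and collecting duct (chromosome 14, 56365068 to 56388550, + strand), measured 0.0183, 0.102 and 0.0199 FPKM in the WT libraries and 1.15, 0.480 and 0.812 in the fat-1 libraries. Every fat-1 library lay above every WT library, but only 1 library reached 1 FPKM. Fitted with no filter, its difference was 0.78 ± 0.19 (SE), with an adjusted p of 0.217 in limma. An antisense gene, Gm10873, overlaps an exon of Atp12a by 193 bases. The other 4 untested members, Slc4a3, Slc4a5, Slc4a8 and Slc4a11, averaged 0.256 to 1.22 FPKM over the 6 libraries and had overlapping groups. Slc4a11 was at 3.70 FPKM in fat-1 replicate 3 and at or under 1.43 FPKM elsewhere.

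**Figure D5:**
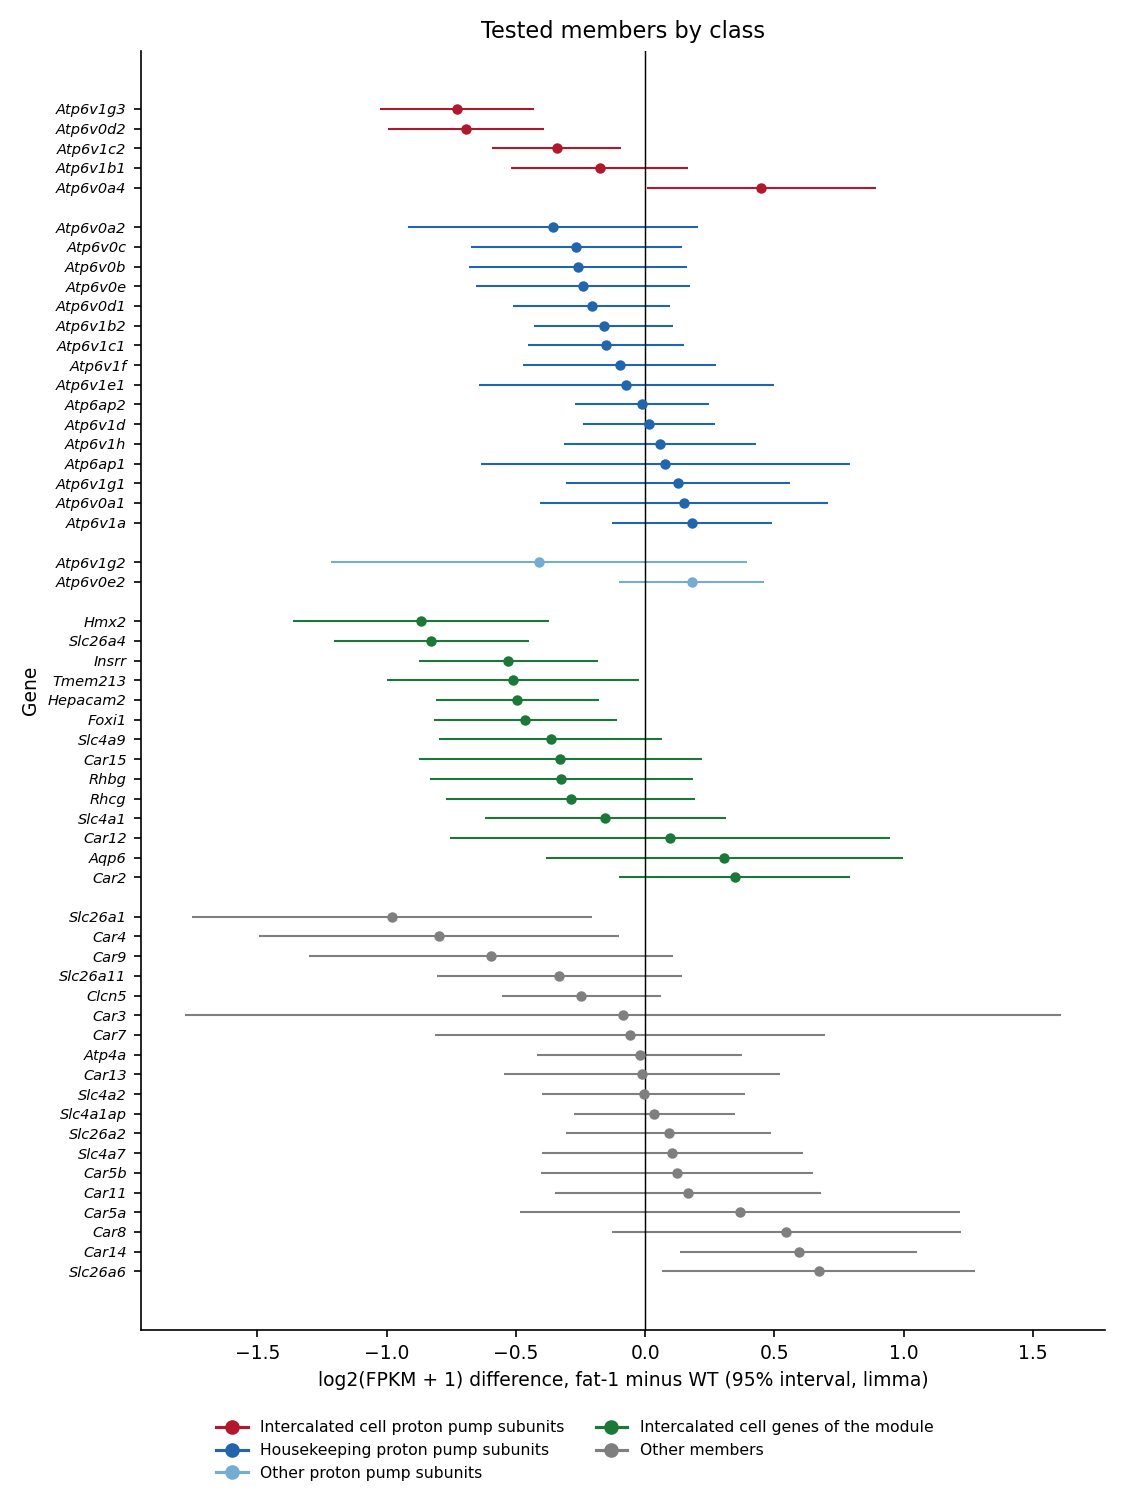
Log2(FPKM + 1) difference, fat-1 minus WT (x axis), with its 95% interval from limma for the 56 tested members (y axis), coloured by class. Intervals clear of 0 on the lower side include Atp6v1g3, Atp6v0d2, Atp6v1c2, Hmx2, Slc26a4 and Foxi1. On the upper side they are those of Atp6v0a4, Car14 and Slc26a6. Intervals of all 16 housekeeping subunits span 0, and no member passed an adjusted p of 0.05.

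Genes that work with the pump, and intercalated cell genes beyond the named families, were read in the same fit. Of 11 tested genes listed as assembly and binding proteins, 0 were at an unadjusted p under 0.05 in either direction, and the median was -0.06. Among them were the Rabconnectin genes Dmxl1, Dmxl2 and Wdr7, the assembly chaperone gene Vma21 and the TLDc-domain genes Ncoa7, Oxr1 and Tldc2. The 11 also include Tcirg1, which is itself a pump subunit, the a3 isoform. Tldc2 had groups apart, at 3.29 ± 0.847 FPKM in WT against 2.13 ± 0.454 in fat-1 (SD, n = 3) (adjusted p = 0.567). None of 10 tested intercalated cell genes outside the families was called (0 of 10). Among those lower at an unadjusted p under 0.05 were Spink8 and Oxgr1, a receptor for alpha-ketoglutarate (-0.58 ± 0.16 (SE), adjusted p = 0.259). The 1 gene higher at that level was Tfcp2l1, a transcription factor of the collecting duct, at 39.3, 37.6 and 28.1 FPKM in the WT libraries and 51.6, 56.8 and 55.5 in the fat-1 libraries (0.64 ± 0.15 (SE), adjusted p = 0.176).

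Markers of other cell types differed between these libraries too. Summed principal cell markers were 217 to 239.9 FPKM in WT against 174 to 282 FPKM in fat-1, highest in fat-1 replicate 3. Of 10 tested, 2 were lower at an unadjusted p under 0.05, against 4.16% of all tested genes. Distal convoluted and connecting tubule markers, the neighbours of intercalated cells, summed to 2715 to 3192 FPKM in WT against 1756 to 2388 FPKM in fat-1. Most of this sum was Klk1, with overlapping groups at 1702 ± 285 FPKM in WT against 1482 ± 229 in fat-1 (SD, n = 3). Differences were negative for 10 of 10, against 48.8% of all tested genes, and 5 were lower at an unadjusted p under 0.05. Endothelial markers summed to 115 to 139.9 FPKM in WT against 217 to 295 FPKM in fat-1. All 12 had groups apart with fat-1 higher, against 8.33% of all tested genes, and 1 was at an adjusted p under 0.05. Podocyte markers summed to 85.8 to 100.1 and 117 to 137 FPKM, thick ascending limb markers to 1251 to 1540 and 987 to 1882 FPKM, and proximal tubule markers to 2116 to 3011 and 2054 to 2892 FPKM. Macrophage markers reached 2589 FPKM in WT replicate 1, of which Cd74 gave 1512 FPKM, against 299 to 661 FPKM in the other 5 libraries. Among these markers, Plce1 was at 0 in WT replicate 3 and Elf5 in fat-1 replicate 2, and no other value was 0. Their part in the differences of the pump and intercalated cell genes was not tested.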

How the data were processed

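Kidney RNA of 3 WT and 3 fat-1 samples was analysed. The submitters' processing notes name mm10, featureCounts 1.5.0-p3, HISAT2 2.0.5 and DESeq2 1.20.0 without their roles, and the program behind the FPKM was not given in the sources used here. Tables deposited by the authors give FPKM for 27486 protein-coding transcripts, each at 0.5 FPKM or more in at least 1 library, so a gene's sum can miss minor transcripts. FPKM was summed per gene, and genes with at least 1 FPKM in 3 libraries were fitted as log2(FPKM + 1) with limma 3.58.1 (trend, robust) in R 4.3.3, with Benjamini-Hochberg adjustment over all 11698. The fit was tested on simulated data. Whole reads could not be recovered from the values, so no count test was run and depth is unknown. No libraries were identical. Ratios of isoforms were compared by exact two-sided permutation tests.

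Members and lists were chosen with earlier results of these data known, so they are not independent support. Named were all pump subunits and intercalated cell genes of the lists and, of other members, up to 6 in each direction with the smallest p and any averaging at least 20 FPKM. Alternatives changed scaling, filter, pseudocount, variance model, transcripts and libraries. A gene of the lists is not reported here.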

Additional observations from a re-analysis of the deposited data

How the results depend on the processing

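Over all tested genes, 21 were called at an adjusted p of 0.05 in limma. The number was 42 with a filter of 5 FPKM, 34 after quantile normalization, 13 with trimmed mean of M values factors, 10 with median-of-ratios factors, 7 with plain limma, 4 with no filter and 3 with the highest transcript only, and it ran from 0 to 25 when 1 library was left out. No member was called under any of these 14 alternatives or with the pseudocount of 0.1 that is among them. The counts of members at an unadjusted p under 0.05 were recomputed as alternatives chosen after seeing the data, and the matching shares over all tested genes are not given. Without 1 library the counts ran from 7 to 14 for lower members and from 1 to 2 for higher members, and the higher count was 1 with the highest transcript only. With that setting the median of the intercalated cell subunits was -0.27 against -0.34, the difference of Atp6v0a4 also turned to -0.27, and its log2 ratio to Atp6v0a1 turned to -0.52, since 1 of its 2 transcripts was left out. Of 674 values of 49 named members, 653 kept their direction and 21, from 11 members, turned. The 653 include values that could not turn: no filter, the filter of 5 FPKM and plain limma leave a gene's fitted difference unchanged. The count therefore overstates how far direction was tested. Atp6v1d turned to -0.0021 with trimmed mean of M values factors. Leaving out 1 library turned Atp6ap1 (-0.27 to 0.34), Atp6v1e1 (-0.27 to 0.13), Atp6v0a1 (-0.081 to 0.28), Atp6v1d (-0.031 to 0.062), Atp6ap2 (-0.053 to 0.044), Car5b (-0.012 to 0.34), Car7 (-0.29 to 0.17), Car12 (-0.16 to 0.42), Atp6v1h (-0.054 to 0.18) and Atp6v1g1 (-0.0014 to 0.31), and the ratio of Atp6v1b1 to Atp6v1b2 (-0.13 to 0.14). Apart from what the settings themselves leave out, the cause was not tested. The median over all tested genes stayed between -0.03 and 0.05 throughout. No paired analysis was possible because the labels give the groups no shared replicate numbers; those used here follow the order of the samples and only name them. Without counts, the precision that depth gives to low genes such as Hmx2 and Atp12a is unknown, and 3 libraries a group limit every test.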
